A study of Mus musculus with 23 samples.

Results

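The netrins and netrin receptors examined here were 10 genes, chosen by name from 27178 genes in the table: the secreted netrins Ntn1 and Ntn4, the membrane-anchored netrins-G Ntng1 and Ntng2, and the receptors Dcc, Neo1, Unc5a, Unc5b, Unc5c and Unc5d. The family was taken up with earlier results of these data known, so its group differences are a description. All 10 were found and all 10 were among the 16385 genes tested.

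Netrins are laminin-related guidance cues. Netrin-1 attracts growing axons through DCC and repels them where a receptor of the UNC5 group takes part, and neogenin, encoded by Neo1, is a DCC paralog that binds netrins and repulsive guidance molecules. Netrins-G are held to the membrane by a lipid anchor and bind the synaptic netrin-G ligands of the Lrrc4 family rather than DCC or UNC5. In the forebrain the family is known from synapses, from myelin, and from the guidance of growing dopamine axons toward prefrontal cortex, a setting in which DCC has been studied most.

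The libraries came from virus-infected orbitofrontal cortex of male wild-type C57BL/6J mice that were 8 weeks old. On day 0 an AAV6 virus was injected into this region of every mouse. Its GFAP promoter, which is active in astrocytes, drove either ZBTB7A, a transcription factor of the BTB and zinc finger family, or the fluorescent protein GFP. On day 21 the mice went through subthreshold social defeat, a brief encounter with an aggressor that is mild by design, or a control procedure. All of them, controls included, then had social interaction, sucrose preference and forced swim tests on days 22 to 27, and tissue was taken on day 28. The 4 groups were ZBTB7A stress (n = 5 libraries), ZBTB7A control (n = 5), GFP stress (n = 8) and GFP control (n = 5). The labels do not say that each library is a separate mouse, so a p-value measures the spread between these libraries. The tissue is whole dissected cortex, not sorted astrocytes.

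Depth ran from 12.5 M to 51.9 M recovered reads. The mouse gene Zbtb7a was not higher in libraries labelled ZBTB7A: it averaged 3744 ± 173 normalized counts (SD, n = 5) in ZBTB7A stress and 3934 ± 251 (n = 8) in GFP stress libraries, and 3716 ± 247 in ZBTB7A control and 3834 ± 629 in GFP control libraries (n = 5 each), with limma adjusted p-values of 0.651 and 1.00. Whether transcripts of the vector are counted under this gene is not given in the sources used here, so ZBTB7A and GFP name what the libraries are labelled throughout, and each direction by virus rests on those labels. Cortical excitatory genes marked every library, with Slc17a7, the vesicular glutamate transporter of cortical neurons, at 10938 normalized counts or more. Genes of striatal neurons were also present. The 5 libraries farthest from the median of their level, called far here, were ZBTB7A control 6, which was high, and GFP stress 5, 12, 20 and 21, which were low. The number 5 was a choice: ZBTB7A control library 15, at -1.18, and ZBTB7A stress library 9, at 1.63, stayed in. Without the 5, the GFP stress group keeps only libraries 3, 4, 13 and 22. For some of the members' differences the value without the 5 far libraries is given. A difference printed without such a value can depend on them as well. Numbers in library names are those of the sample titles, which pass through the 4 groups in 3 runs. The labels do not say what the runs mark.

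Per length, the receptors Unc5a and Neo1 had the highest means of the family in this tissue. On the scale of normalized count per kb of annotated exon, Unc5a averaged 848 ± 158 and Neo1 354 ± 21.9 (SD over 23 libraries). Neo1 was above Unc5b in 22 of 23 libraries. Ntng2 reached 522 in GFP control library 11, above the highest Neo1 value of 416. Unc5b at 183 ± 77.6 and Ntng2 at 178 ± 95.8 were not ordered, since Unc5b was the higher in only 10 of 23 libraries. Unc5d followed at 98.4 ± 19.9. Ntn1 at 61.9 ± 22.3 and Dcc at 60.3 ± 12.5 were likewise not ordered, with Ntn1 the higher in 9 of 23 libraries. Ntng1 averaged 52.9 ± 16.4 and Ntn4 49.9 ± 8.28, and Ntng1 was the higher in 12 of 23. Unc5c was lowest at 40.2 ± 4.61, below Ntn4 in 20 of 23 libraries. That order rests on the annotated lengths, 19.1 kb for Unc5c and 3.74 kb for Ntn4. By normalized count alone Unc5c averaged 768 and Ntn4 187.

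**Figure D1:**
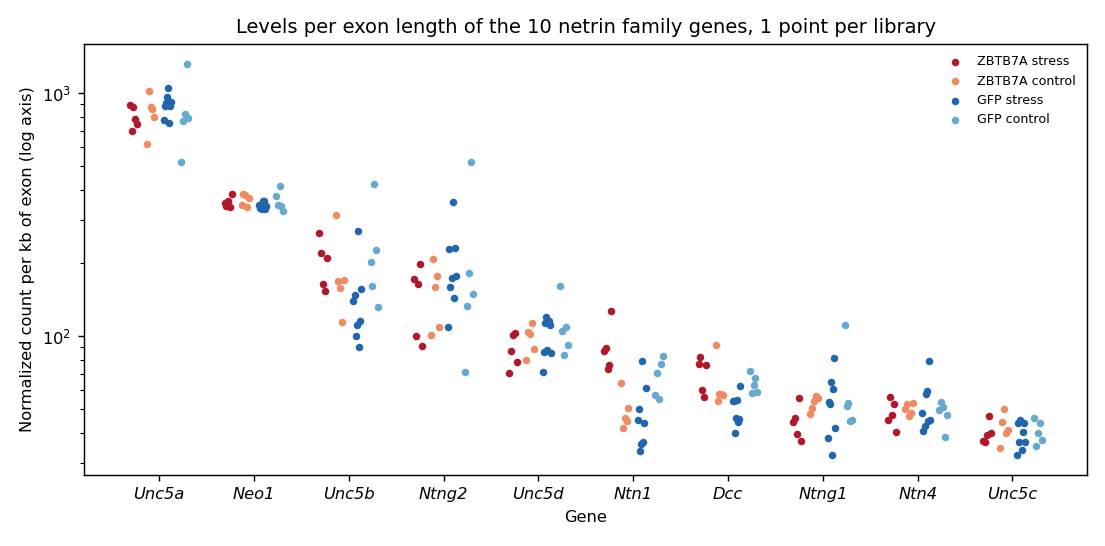
Normalized count per kb of annotated exon, on a log axis, for the 10 genes ordered by their mean; each point is 1 library and colours mark the 4 groups. Unc5a (mean 848) and Neo1 (354) have the highest means, with single libraries of Ntng2 and Unc5b above Neo1. The lowest genes, Ntng1, Ntn4 and Unc5c (52.9, 49.9 and 40.2), overlap widely.

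The members differed in how much they varied between libraries. Neo1 was the steadiest, with a coefficient of variation of 6.17% over 23 libraries and a highest value 1.27 times the lowest. Ntng2 varied most, at 53.7% and 7.37 times, followed by Unc5b at 42.4% and 4.68 times and Ntn1 at 35.9% and 3.77 times. Ntng2 took both its extremes within GFP control libraries, so its spread was not one between groups.

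Ntn1, the diffusible ligand of DCC and UNC5 receptors, had the largest log2 difference of the 10 members between ZBTB7A and GFP libraries with stress. It had 460.0, 475, 542, 562 and 793 normalized counts in the 5 ZBTB7A stress libraries and 262, 280.3, 287, 318 and 402 in the 5 ZBTB7A control libraries. In the 8 GFP stress libraries it ran from 210.0 through a median of 279 to 497, and the 5 GFP control libraries had 344, 357, 441, 483 and 518. Every ZBTB7A stress library lay above every ZBTB7A control library, and above all GFP stress libraries but 1, library 13. The GFP groups stood in the opposite order, with 6 of 8 GFP stress libraries below all GFP controls.

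Group means of Ntn1 were 566 ± 134 in ZBTB7A stress and 309.9 ± 55.4 in ZBTB7A control libraries (SD, n = 5 each), against 302 ± 96.6 in GFP stress (n = 8) and 429 ± 76.5 in GFP control libraries (n = 5). Among stressed mice the log2 difference of ZBTB7A minus GFP was 0.93 ± 0.18 (SE), a ratio of 1.91 with a 95% interval of 1.47 to 2.47. It was the second smallest p of 16385 genes in limma, with an adjusted p of 0.183, and so did not pass the threshold of 0.05. Without stress the same difference was -0.46 ± 0.20, with a limma adjusted p of 1.00.

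**Figure D2:**
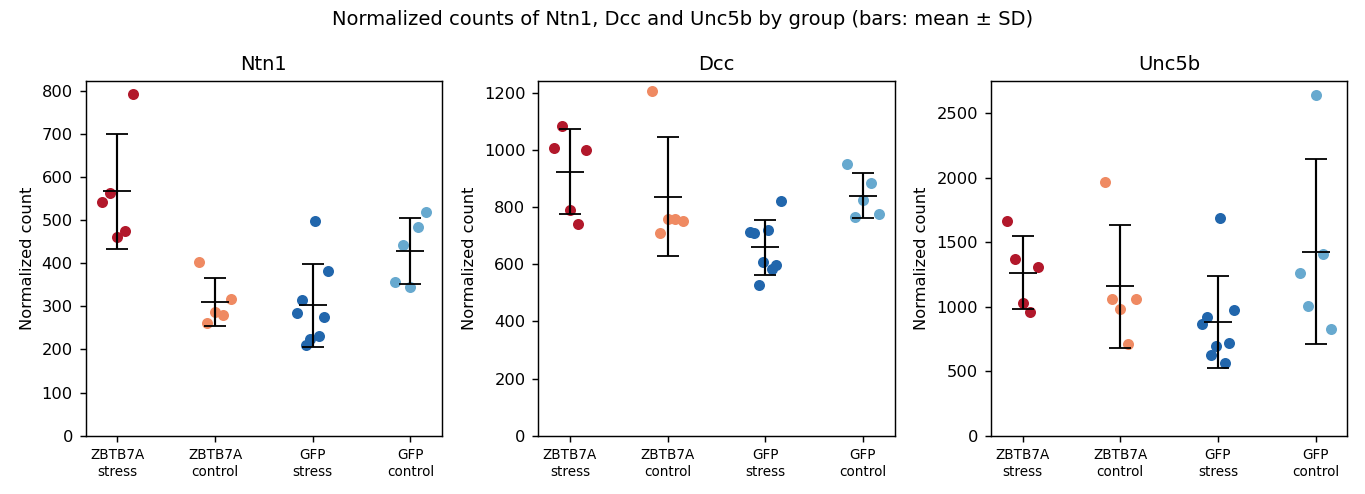
Normalized counts of Ntn1, Dcc and Unc5b in each library (points) of the groups ZBTB7A stress, ZBTB7A control, GFP stress and GFP control (n = 5, 5, 8 and 5), with bars for the mean ± SD. Ntn1 is at 460.0 or above in every ZBTB7A stress library and at or below 402 in every ZBTB7A control library, whereas Dcc and Unc5b overlap between all groups.

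The difference of Ntn1 with stress had opposite signs under the labelled vectors. Stress minus control was 0.86 ± 0.20 on the log2 scale (SE, ratio 1.81, 95% interval 1.36 to 2.41) under ZBTB7A and -0.54 ± 0.18 (ratio 0.687, 0.530 to 0.890) under GFP. The limma adjusted p was 1.00 under ZBTB7A and 0.330 under GFP. The interaction, which is the difference between those differences, was 1.40 ± 0.27 (ratio 2.63, 1.79 to 3.88), also second by p among 16385 genes, with a limma adjusted p of 0.262. DESeq2 on the recovered reads gave Ntn1 adjusted p-values of 0.00982 for ZBTB7A against GFP with stress and 0.00737 for the interaction, and edgeR gave 0.186 and 0.369. Single libraries moved the call: without GFP stress library 13 the limma adjusted p was 0.0212 with stress and 0.0276 for the interaction, and without ZBTB7A control library 6 it was 0.0516 and 0.0342. The 5 differences share libraries and are not independent of each other.

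Within the 3 runs of title numbers Ntn1 kept its direction in 3 of the 4 comparisons. ZBTB7A minus GFP with stress was 1.05, 0.46 and 1.08 on the log2 scale in runs 1, 2 and 3, and stress minus control was 0.46, 0.74 and 1.04 under ZBTB7A and -0.58, -0.29 and -0.84 under GFP. Without stress ZBTB7A minus GFP was 0.02, -0.57 and -0.79. A run holds 1 to 3 libraries of a group, so these are values without a test.

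Dcc, the receptor through which netrin-1 attracts axons, had 741, 789.6, 998, 1006 and 1083 normalized counts in ZBTB7A stress libraries and 710.3, 751, 756, 757 and 1206 in ZBTB7A control libraries. In GFP stress libraries it ran from 526 through a median of 657 to 821, and GFP controls had 766, 775, 826, 884 and 949. The GFP stress group was the low one: 7 of its 8 libraries lay below every ZBTB7A stress library and 7 of 8 below every GFP control. ZBTB7A minus GFP with stress was 0.48 ± 0.12 (SE, ratio 1.40, 1.17 to 1.67, limma adjusted p 0.183), and stress minus control under GFP was -0.36 ± 0.12 (limma adjusted p 0.345). Under ZBTB7A the stress difference was 0.16 ± 0.14, and the interaction was 0.51 ± 0.18 with a limma adjusted p of 0.668. The stress differences moved with the far libraries: without the 5 they were 0.30 under ZBTB7A, the same as without ZBTB7A control library 6 alone, and -0.18 under GFP.

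Unc5b, a dependence and repulsion receptor also known from blood vessels, had 957, 1027, 1307, 1369 and 1664 normalized counts in ZBTB7A stress libraries and 712, 986, 1058, 1063 and 1967 in ZBTB7A control libraries. GFP stress libraries ran from 565 through a median of 795 to 1687, and GFP controls had 827, 1002, 1258, 1409 and 2644. All groups overlapped, and single libraries, ZBTB7A control 6, GFP stress 13 and GFP control 10, gave the highest value of their groups. ZBTB7A minus GFP with stress was 0.57 ± 0.27 on the log2 scale (SE, limma adjusted p 0.306), stress minus control under GFP was -0.65 ± 0.27 (limma adjusted p 0.407) and the interaction was 0.83 ± 0.40 (limma adjusted p 0.668). Within runs the first of these was 0.92, -0.08 and 0.60, so its sign was not constant. Without the 5 libraries far in striatal level it was 0.21, stress minus control was 0.40 under ZBTB7A, against 0.18 with them, and -0.29 under GFP. Without GFP control library 10 alone the difference under GFP was -0.40. ZBTB7A minus GFP without stress was -0.26 over all libraries and -0.48 without the 5 far ones.

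The other 7 members had differences whose 95% intervals all held 0. Neo1, the second netrin receptor of the DCC type, averaged 3102 ± 159 in ZBTB7A stress, 3169 ± 181 in ZBTB7A control, 2989.5 ± 94.5 in GFP stress and 3151 ± 306 normalized counts in GFP control libraries. Its interval of ZBTB7A over GFP with stress, a ratio of 0.961 to 1.12, was the narrowest of the family. Unc5a, the most abundant receptor per length, averaged 3329 ± 348, 3478 ± 606, 3712 ± 399 and 3516 ± 1222 in the same order of groups, and its ratio with stress was 0.897 with an interval of 0.724 to 1.11.

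Unc5c and Unc5d, the other two repulsive receptors, lay close to 1 in ratio with stress, at 1.02 (0.894 to 1.17) and 0.898 (0.726 to 1.11). Ntn4, a netrin of basement membranes and vessels, was at 0.941 (0.783 to 1.13). Ntng1 and Ntng2, the synaptic netrins-G, were at 0.865 (0.645 to 1.16) and 0.746 (0.453 to 1.23). The width of the interval for Ntng2 leaves room for a difference in either direction. Without the 5 far libraries the log2 differences with stress turned positive for Ntng1, at 0.12 against -0.21 with them, for Unc5d, at 0.08 against -0.16, and for Ntn4, at 0.0036 against -0.09. Stress minus control under GFP was then -0.49 for Ntng1, against -0.17 with them, and -0.38 for Unc5d, against -0.14. The interaction was 0.20 for Ntng1, against -0.09, and -0.44 for Ntng2, against -0.21.

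**Figure D3:**
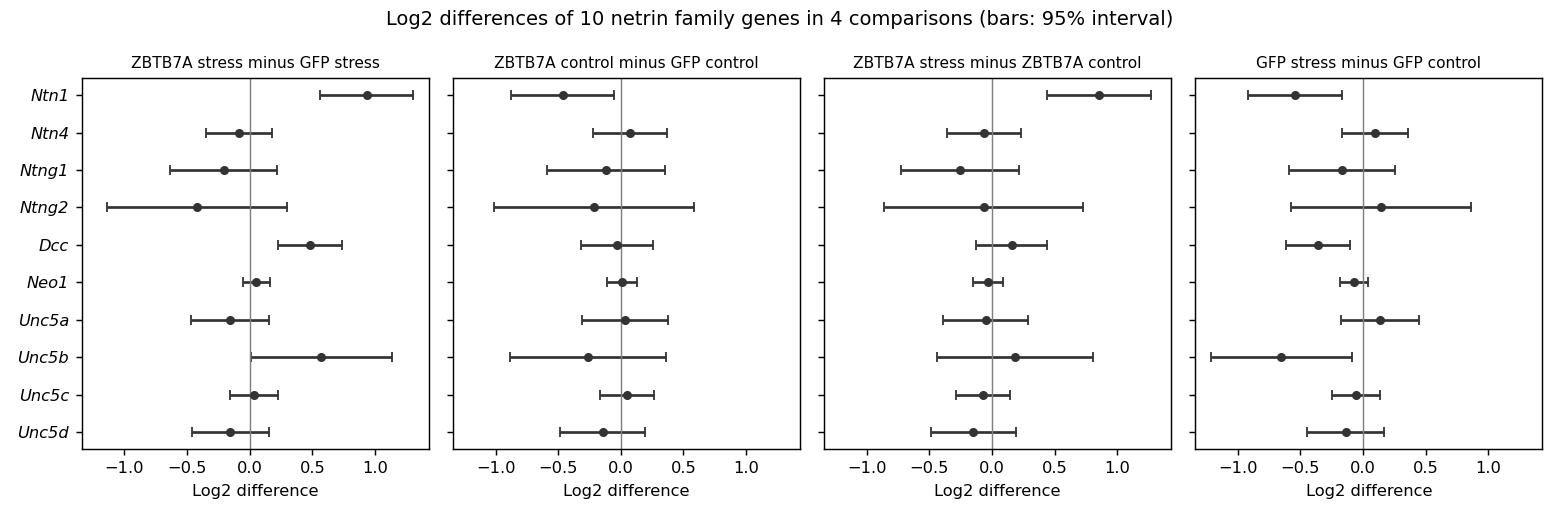
Log2 differences of the 10 genes with 95% intervals (bars) in 4 comparisons: ZBTB7A stress minus GFP stress, ZBTB7A control minus GFP control, ZBTB7A stress minus ZBTB7A control, and GFP stress minus GFP control. Ntn1 lies at 0.93, -0.46, 0.86 and -0.54, Dcc and Unc5b stand off 0 where GFP stress libraries are compared, and the other 7 genes have intervals that hold 0.

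No gene of the table passed a limma adjusted p under 0.05 in any of the 5 differences, which is 0% of 16385 genes in each, so none of the 10 members did. At an unadjusted p under 0.05, 3 of 10 members were higher in ZBTB7A than in GFP libraries with stress (Ntn1, Dcc and Unc5b) where 16.1% of all genes were past it in either direction, and DESeq2 called 46 genes there. For ZBTB7A against GFP without stress 1 member (Ntn1, lower) was past it, against 1.73% of all genes. For stress under ZBTB7A 1 member (Ntn1, higher) was past it, against 1.66% of all genes, and for stress under GFP 3 members (Ntn1, Dcc and Unc5b, lower) were, against 11.2%. For the interaction 2 members (Ntn1 and Dcc) were past it, against 7.42%. The 3 genes of the comparison with stress and of stress under GFP are set against the same 8 GFP stress libraries.

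The ranges of 2 groups did not overlap for 1 member in 1 comparison, Ntn1 for stress under ZBTB7A, where 0.421% of all genes did so. No member had separate ranges for ZBTB7A against GFP with stress (1.00% of all genes), without stress (0.226%) or for stress under GFP (0.372%). Because the members were chosen with results known, these counts describe them and support nothing further. The median log2 difference of the family was -0.03 with stress, against 0.01 over all genes, and -0.11 for stress under GFP, against -0.01 over all genes. In the comparison with stress 5 of 10 members were above 0 and 5 below, and without the 5 far libraries 8 were above 0 and 2 below.

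Some members moved together from library to library. Over the 23 libraries the log2 values of Ntng2 and Unc5a had a Pearson r of 0.89, the closest pair of the 45. Ntng1 and Unc5d followed at 0.75, then Dcc with Unc5b at 0.74 and Ntn1 with Dcc at 0.72. Ntng1 also went with Unc5c at 0.61 and Unc5c with Unc5d at 0.57. After the group means were taken out, r was 0.89 for Ntng2 with Unc5a, 0.72 for Ntng1 with Unc5d, 0.66 for Dcc with Unc5b and 0.62 for Ntn1 with Dcc, close to the values with them in. The r of Dcc with Unc5b was 0.46 when the 5 libraries far in striatal level were left out, and that of Ntn1 with Dcc was 0.64. Ntn1 with Unc5b had an r of 0.57 over all libraries, 0.47 after removal of group means and 0.33 without the 5. These values describe libraries that also share depth and tissue makeup.

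**Figure D4:**
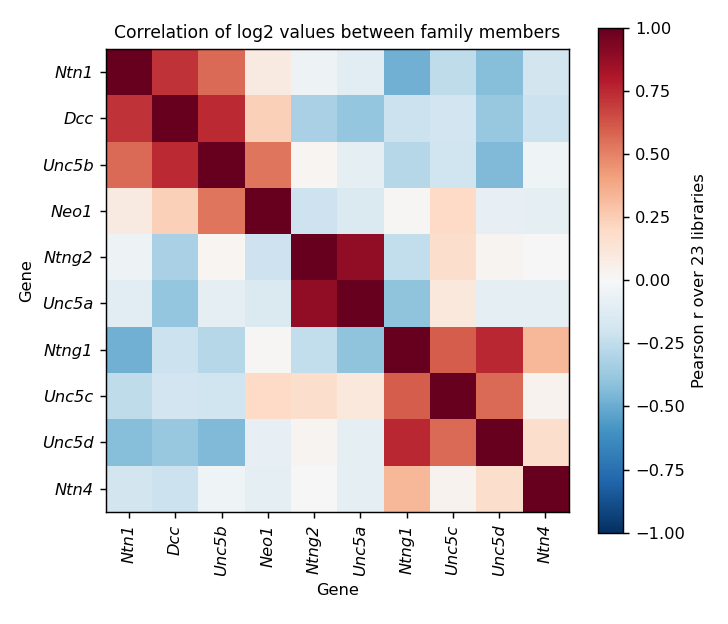
Pearson r of log2(normalized count + 1) between each pair of the 10 genes over 23 libraries, from blue (negative) to red (positive), with genes placed by their correlations. Red blocks hold Ntn1, Dcc and Unc5b (0.57 to 0.74), Ntng2 with Unc5a (0.89), and Ntng1 with Unc5c and Unc5d (0.57 to 0.75).

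Promoters of 7 of the 10 members were matched in RefSeq (build GRCm38.p6). Ntn1, Dcc and Unc5d were not matched. The promoters of Ntng2 and Unc5a are shown because these genes had the closest pair of profiles, and that of Unc5b because it is the one member matched among those past an unadjusted p. Each covers 250 bases before and 50 after the annotated start, 5′ to 3′ on the gene's strand, and capitals mark the GC box GGGCGG read on either strand, the core letters bound by SP1-type factors.
Ntng2 (chr2:29248050-29248349, minus strand): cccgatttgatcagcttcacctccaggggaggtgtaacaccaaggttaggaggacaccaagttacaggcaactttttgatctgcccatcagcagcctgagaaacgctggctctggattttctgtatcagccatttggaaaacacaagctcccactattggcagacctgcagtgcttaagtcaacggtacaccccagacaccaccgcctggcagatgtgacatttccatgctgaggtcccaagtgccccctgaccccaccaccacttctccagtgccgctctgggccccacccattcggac
Unc5a (chr13:54949161-54949460, plus strand): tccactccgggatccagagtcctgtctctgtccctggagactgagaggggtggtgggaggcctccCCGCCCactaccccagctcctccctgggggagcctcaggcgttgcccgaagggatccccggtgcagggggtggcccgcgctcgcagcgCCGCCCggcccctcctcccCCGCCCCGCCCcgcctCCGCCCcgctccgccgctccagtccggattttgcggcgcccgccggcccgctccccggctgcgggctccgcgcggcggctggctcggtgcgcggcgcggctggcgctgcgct
Unc5b (chr10:60831532-60831831, minus strand): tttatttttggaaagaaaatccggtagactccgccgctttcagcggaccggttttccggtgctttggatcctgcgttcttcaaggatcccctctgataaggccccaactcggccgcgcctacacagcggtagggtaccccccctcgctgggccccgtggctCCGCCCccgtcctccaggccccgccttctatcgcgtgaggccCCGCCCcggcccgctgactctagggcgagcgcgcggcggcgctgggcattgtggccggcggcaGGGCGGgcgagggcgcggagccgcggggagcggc

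The Ntng2 window had 55.0% G and C and no GC box, whereas the Unc5a window had 78.3% and 5 GC boxes, so the pair with the closest profiles did not share this feature. The Unc5b window had 69.7% G and C and 3 GC boxes. GC boxes occurred in 5 of the 7 matched members and in 35.7% of 32851 promoters of the same length. The letters GACCACC, a core that ZBTB7A binds in vitro, occurred on neither strand in the 7 windows and in 2.80% of all promoters. That says only that these letters are not in those windows.

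Genes of other cell types moved with the members. The level of 15 striatal neuron genes, taken as their mean centred log2 value, was 0.95 ± 0.63 in ZBTB7A stress, 0.10 ± 1.18 in ZBTB7A control, -0.98 ± 1.40 in GFP stress and 0.51 ± 0.59 in GFP control libraries (SD). All 15 were tested, and 1 of them, Isl1, was at 0 in 1 library. Their summed normalized counts ran from 48103 to 124358, 21119 to 184129, 11105 to 71901 and 33135 to 87806 in the same order of groups. In bulk tissue, fewer cells of a type and less RNA per cell cannot be told apart. The mean level was highest in ZBTB7A stress and lowest in GFP stress libraries, which is also where Ntn1 and Dcc were highest and lowest.

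Ntn1 followed the striatal level across the 23 libraries, with a Pearson r of 0.80 and a Spearman rho of 0.88. Both permutation p-values were 1e-05, the smallest that 100000 permutations can give, and were 0.00013 and 0.0002 after Benjamini-Hochberg adjustment over 40 relations (10 members by 4 marker levels). The r was 0.75 without the 2 libraries farthest from the median level, 0.79 without the 5 far libraries and 0.77 after removal of group means. With the striatal level as a covariate in limma, Ntn1 was 0.48 higher on the log2 scale in ZBTB7A than in GFP libraries with stress, against 0.93 without the covariate. The interaction was then 0.85 against 1.40, stress under ZBTB7A 0.66 against 0.86, and stress under GFP -0.19 against -0.54. Each of these differences was nearer 0 with the level in the fit. Without the 5 far libraries the values were 0.62 for ZBTB7A against GFP with stress, 1.18 for the interaction, 0.95 for stress under ZBTB7A and -0.23 for stress under GFP. The signs held and the limma adjusted p was 0.143 or more in each of these fits.

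Dcc followed the striatal level as well, with an r of 0.85 and a rho of 0.76 (permutation p 1e-05, the smallest possible, and 3e-05; adjusted 0.00013 and 0.0004). Its r was 0.83 without the 2 farthest libraries and 0.62, with an adjusted permutation p of 0.0761, without the 5 far libraries. With the striatal covariate the Dcc difference of ZBTB7A minus GFP with stress was 0.17, against 0.48 without it. With striatal, olfactory bulb and choroid and ependymal levels together it was 0.15, and the interaction was -0.0027 against 0.51. Without the 5 far libraries Dcc was 0.31 higher in ZBTB7A than in GFP libraries with stress. Where the levels themselves differ between groups, their part and that of the groups cannot be told apart.

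Unc5b went most closely with oligodendrocyte genes, which encode myelin proteins: its r with their level was 0.90 and its rho 0.85 (permutation p 1e-05, the smallest possible; adjusted 0.00013 and 0.0002). The r was 0.88 without the 2 farthest libraries, 0.83 without the 5 far ones and 0.87 after removal of group means. The oligodendrocyte level was 0.25 ± 0.34 in ZBTB7A stress, 0.03 ± 0.58 in ZBTB7A control, -0.38 ± 0.68 in GFP stress and 0.33 ± 0.63 in GFP control libraries, all 10 genes were tested and none was at 0. Their summed normalized counts ran from 96877 to 163764, 67063 to 197505, 43203 to 157113 and 88241 to 254555 in that order. The oligodendrocyte level was not a covariate in any fit. With the striatal, olfactory bulb and choroid and ependymal levels as covariates, Unc5b differed by 0.04 between ZBTB7A and GFP libraries with stress, against 0.57 without them. Between stress and control under GFP it differed by 0.16, against -0.65.

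The level of choroid plexus and ependymal genes was 0.14 ± 0.60 in ZBTB7A stress, -0.05 ± 1.04 in ZBTB7A control, -0.90 ± 0.77 in GFP stress and 1.34 ± 1.13 in GFP control libraries (SD), so it was lower in the stressed GFP group, as Dcc and Unc5b were. Of its 12 genes 11 were tested. Otx2 was at 0 in 2 libraries, Tmem212 in 3 and Kcne2, the gene not tested, in 2. Summed normalized counts of the 12 ran from 669 to 1608, 554 to 2637, 279 to 1156 and 1127 to 9936 in that order. The level of 12 cortical excitatory genes ran from -0.38 to 0.04 in ZBTB7A stress and from 0.09 to 0.30 in GFP stress libraries, without overlap, and from -0.89 to 0.15 in ZBTB7A control and -0.39 to 0.35 in GFP control libraries. All 12 were tested and none was at 0, and their summed normalized counts ran from 129198 to 183544, 110914 to 199846, 173574 to 240643 and 118720 to 222788 from ZBTB7A stress, ZBTB7A control and GFP stress to GFP control. It was thus lower in the ZBTB7A stress group, where Ntn1 and Dcc were higher than in GFP stress libraries, and its part in those differences was not tested.

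**Figure D5:**
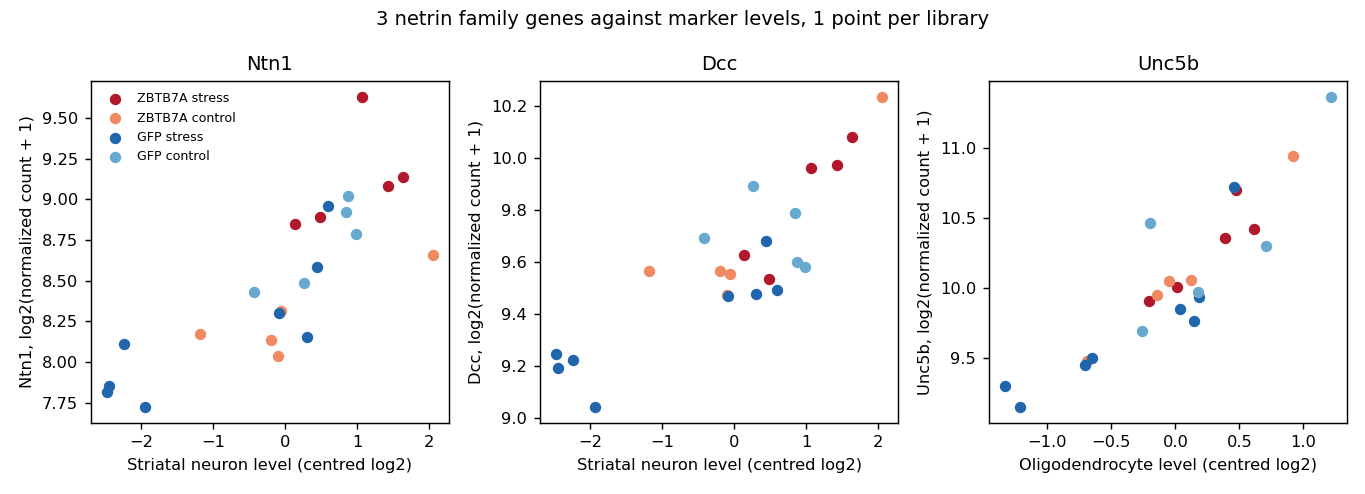
Log2(normalized count + 1) of Ntn1 and Dcc against the level of striatal neuron genes and of Unc5b against the level of oligodendrocyte genes, both as mean centred log2 values; each point is 1 of 23 libraries, coloured by group. The points rise with r of 0.80, 0.85 and 0.90, and 4 GFP stress libraries lie at the low end of the striatal level.

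Of the 40 relations 13 passed an adjusted permutation p under 0.05, 11 positive and 2 negative. Genes outside the family were not put through these permutations. The count therefore has no share of all genes beside it and does not set the family apart. Of the 10 with the striatal level 4 did: Ntn1, Dcc and Unc5b (r 0.65, falling to 0.18 without the 5 far libraries) positive, and Unc5d negative at -0.51. With oligodendrocyte genes 4 passed, all positive: Unc5b, Dcc at 0.79, Ntn1 at 0.58 and Neo1 at 0.51. With choroid and ependymal genes Unc5b at 0.68 and Dcc at 0.67 were positive and Unc5a at -0.56 was negative. In the olfactory bulb level 4 libraries stood apart, ZBTB7A stress 25, ZBTB7A control 24 and GFP stress 20 and 21, at 1.52 or more where the next was 0.50. The positive relations of Ntn4 and Ntng1 with that level (adjusted permutation p 0.0373 each with these 4 libraries in) are the remaining 2 of the 13. Over the other 19 libraries no relation with it passed: r was 0.27 for Ntn4 and 0.53 for Ntng1, with adjusted permutation p-values of 0.443 and 0.0783. Without the 5 far libraries 2 of the 40 relations passed, Ntn1 with striatal and Unc5b with oligodendrocyte genes.

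By Pearson r of log2 values over the 23 libraries, the nearest genes differed between members, apart from Akap2. For Ntn1 they were Cartpt, which encodes the CART neuropeptide precursor (r 0.90), the keratin gene Krt9 (0.89) and Strip2 (0.89). After the group means were taken out, r with Ntn1 was 0.76 for Cartpt, 0.87 for Krt9 and 0.84 for Strip2. For Dcc they were the transcription factor genes Onecut2 (0.91) and Zfhx3 (0.91) and the kinase gene Stk32a (0.90), and for Unc5b Phldb1, the kinase gene Wnk1 and Prr18, each at 0.97. Unc5a went with Klhl18, Plekhg5 and the postsynaptic scaffold gene Dlgap4 (each 0.94), and Ntng2 with the pannexin gene Panx2, Rasl10a and Zfp335 (each 0.91). Ntng1 and Unc5d had Akap2 in common among their nearest genes, at 0.81 and 0.79. The single nearest gene was Cpd for Neo1 (0.85), Pcdh20 for Ntng1 (0.84), Dnajc18 for Unc5c (0.82), Upp2 for Unc5d (0.81) and Vipr2 for Ntn4 (0.75).

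The wider pathway was read from 2 lists. The list of 18 partners holds further netrins, the DCC-like receptors Dscam and Dscaml1, netrin-G ligands, repulsive guidance molecules and FLRT proteins, and all 18 were tested. None passed the adjusted threshold in any of the 5 differences, and for ZBTB7A against GFP with stress 3 were higher and 2 lower at an unadjusted p under 0.05, where 16.1% of all genes were past it. Draxin, a secreted guidance protein that binds netrin and DCC, averaged 103 ± 34.6 normalized counts in ZBTB7A stress and 50.05 ± 40.3 in GFP stress libraries (log2 difference 1.38 ± 0.51, limma adjusted p 0.235). Lrrc4, a netrin-G ligand family member, averaged 2183 ± 222 in ZBTB7A stress and 2590.0 ± 331 in GFP stress libraries (log2 difference -0.24 ± 0.10, limma adjusted p 0.258).

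The 24 signalling genes include the kinases Fyn, Src and Ptk2, the adaptors Nck1 and Nck2, GTPases and their regulators, and actin proteins that act below DCC, and all 24 were tested. None passed, and with stress 2 were higher and 4 lower in ZBTB7A than in GFP libraries at an unadjusted p under 0.05, against 16.1% of all genes. Pitpna, a phosphatidylinositol transfer protein that binds DCC, averaged 6903 ± 672 in ZBTB7A stress and 8278 ± 837 in GFP stress libraries (log2 difference -0.26 ± 0.10, limma adjusted p 0.235). Trim9, a ubiquitin ligase that binds DCC, averaged 6945 ± 785 in ZBTB7A stress and 8490.5 ± 737 in GFP stress libraries (log2 difference -0.29 ± 0.12, limma adjusted p 0.267). For stress under GFP, Lrig3 was -0.43 ± 0.19 and the filopodial motor gene Myo10 -0.30 ± 0.14 on the log2 scale, with limma adjusted p-values of 0.423 and 0.424. These were the only genes of the 2 lists past an unadjusted p under 0.05 for stress under GFP, 1 of 18 and 1 of 24 against 11.2% of all genes. None was past it without stress (1.73% of all genes), for stress under ZBTB7A (1.66%) or for the interaction (7.42%). Cbln4, Lrig3, Siah1a and Fyn for ZBTB7A against GFP without stress and Nectin1, Lrrc4, Trim67 and Trio for stress under ZBTB7A had the smallest p of their lists, each with a limma adjusted p of 1.00. The median log2 difference with stress was -0.04 for the partners and -0.03 for the signalling genes, against 0.01 over all genes.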

How the data were processed

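Polyadenylated RNA of 23 libraries was sequenced with the TruSeq RNA v2 kit, per the labels' protocols. The authors deposited 1 table of normalized counts, a signal of reads divided by 1 size factor per library, with no correction for gene length. Tools named in the submitters' processing notes are featureCounts 2.0.1, HISAT2 2.1.0 and DESeq2 2.11.40.6, and 2 builds are named, mm9 and mm10, whose roles are not given there. All 23 value columns were used.

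The table held 27606 entries. Of these 428 were identical repeats and were removed, which left 27178 genes, 4174 of them at 0 in every library. All deposited values (100% in each library) were whole multiples of 1 step within 0.02 reads, so reads were recovered, 12.5 to 51.9 M per library. The test took genes that reached a normalized count of 10 in 5 libraries or more. A limma fit (3.58.1, R 4.3.3, trended and robust empirical Bayes) of log2(normalized count + 1) on 4 group means gave 4 comparisons and the interaction, two-sided, with Benjamini-Hochberg adjustment over all 16385 genes. Fold changes are on that scale and understate changes of low genes. Lengths are merged exons of GENCODE vM21. Marker levels were related to members with 100000 permutations. Alternatives were a pseudocount of 5, other filters, scaling by TMM, the recovered reads under DESeq2 1.42.0 and edgeR 4.0.16, only the groups compared, run and tissue-level covariates, and libraries left out. The fits were tested on simulated data.

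The members, the lists, the marker levels, the 5 far libraries and the alternatives were chosen with earlier results of these data known. Named genes are the 10 members, up to 2 genes of the partner and signalling lists per comparison by smallest p, and the 3 genes most correlated with each member. Marker lists for astrocytes, microglia, vessels, meninges, cortical excitatory neurons and interneurons were measured as well: their mean levels by group lay between -0.12 and 0.17.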

Additional observations from a re-analysis of the deposited data

Results flagged for a closer look

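Of the 40 sets of values made by 10 members and 4 groups, 5 held a library set apart from the others by more than the 95% critical value of Dixon's ratio of gap to range, where chance gives about 1 in 20. ZBTB7A control library 6 was far on 2 counts: Dcc was at 1206 normalized counts where the other 4 libraries lay between 710.3 and 757, and Unc5b was at 1967 where they lay between 712 and 1063. This library also had the highest striatal level, at 2.05. Unc5b was at 1687 in GFP stress library 13, against 565 to 978 in the other 7. That library also had the highest level of meningeal fibroblast genes, at 1.39 where the next was 0.76, with a summed normalized count of 24998. Its oligodendrocyte level of 0.46 and striatal level of 0.60 were the highest of the GFP stress group. GFP control library 1 had 918 normalized counts of Ntng1, against 369.6 to 437 in the other 4, and without it the log2 difference of stress minus control under GFP was 0.07 rather than -0.17. GFP control library 11 had 2083 normalized counts of Ntng2, against 283 to 725 in the other 4, and without it the difference of ZBTB7A minus GFP without stress was 0.20 rather than -0.21. The part of tissue makeup in these values was not tested.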

How the results depend on the processing

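The count of genes past the adjusted threshold was 0 in each of the 5 differences with limma. DESeq2 on recovered reads called 46 genes for ZBTB7A against GFP with stress, 39 for stress under GFP, 1 for stress under ZBTB7A and 3 for the interaction, of which Ntn1 was the 1 member called in the first and the 1 member called in the last. A fit of only the groups compared called 2 genes with stress. With 1 library left out at a time, limma called 0 to 3 genes with stress and 0 to 82 for the interaction, the 82 without ZBTB7A control library 6, and 0 to 1 member in both, which was Ntn1. The relations with marker levels that passed went from 13 to 2 without the 5 libraries far in striatal level and to 7 without the 4 libraries apart in olfactory bulb level, both with fewer libraries and both chosen after seeing the data. Of 1690 member differences over all settings, 29 moved by more than the spread within groups, all of them under striatal or 3-tissue covariates. The differences of Ntn1 kept their sign in every setting run, and those of Dcc and Unc5b for ZBTB7A against GFP with stress did too. With the 3 tissue levels as covariates, stress minus control under GFP changed sign, from -0.36 to 0.04 for Dcc and from -0.65 to 0.16 for Unc5b. In that fit the interaction of Unc5b went from 0.83 to -0.12. ZBTB7A minus GFP without stress went from -0.26 to 0.16 for Unc5b and from -0.03 to 0.15 for Dcc. With the striatal level alone as covariate, stress minus control of Unc5b under ZBTB7A went from 0.18 to -0.02. The cause of such changes was not tested. Each member had 92 or more recovered reads in each library, and spread between libraries was not separated from counting error. No paired analysis was possible because no replicate number is shared between groups.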
